A study of Mus musculus with 3 samples.

Results

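Cilia and axoneme genes were taken as the probe sets with 1 gene symbol whose gene title, in any of the 3 comparison tables the authors deposited, held the letters axonem, tektin, intraflagellar, cilia, cilium, flagell, sperm, radial spoke or coiled-coil domain containing. This gave 41 probe sets for 37 genes, out of 3858 listed probe sets with 1 symbol (2944 genes) and 45037 non-control probe sets on the array. The tables list only probe sets past 2-fold between at least 1 pair of arrays, so the members were selected by the same differences that are described here. All counts and medians of members are therefore descriptions, with no test and no support drawn from them.

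RNA from mouse lung was measured on 3 Affymetrix arrays, 1 for each group, in mice aged 16 weeks. The first group was a KA/KA-Lori-Ikkα lung sample that mixed squamous cell carcinoma with tissue beside the tumour (tumour lung). The second was lung of the same genotype after a treatment that depletes macrophages, recorded as inflamed to some degree and free of visible tumour (depleted lung). The third was normal lung of a wild type mouse (wild type lung). As background, KA is a kinase-dead knock-in allele of Ikkα, a kinase of the NF-kB pathway, and Lori-Ikkα is an Ikkα transgene under the loricrin promoter, which is active in skin. Both mutant lungs carried both alleles, the wild type lung carried neither, and no macrophage-depleted wild type lung was analysed here. The depleting agent is not named in the sources used here. With 1 array per group, no value has an error and no difference can be set against a spread between animals.

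Motile cilia are the beating hairs of multiciliated airway cells, which clear mucus from the trachea and bronchi. Their core, the axoneme, is a ring of doublet microtubules around a central pair: outer and inner dynein arms pull neighbouring doublets past each other, radial spokes and the nexin-dynein regulatory complex set the bend, tektins and related proteins line the inside of the doublets, and intraflagellar transport carries parts to the tip. The sperm tail is built from much the same parts, so many of these genes bear names from sperm.

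The arrays had median intensities of 124 (tumour lung), 127 (depleted lung) and 128 (wild type lung). The 18 hybridization controls stood 1.00 higher on the log2 scale in tumour lung, and 1.18 higher in depleted lung, than in wild type lung. Xist, the RNA of the inactive X chromosome, had 15608 in tumour lung and 133 in depleted lung, against 188 in wild type lung, so the tumour array differed from both others in a gene of sex. Genes of heart and skeletal muscle (8 of 10 named) summed to 496 in tumour lung and 9326 in depleted lung, against 48279 in wild type lung. The part of sex and of muscle RNA in the results that follow was not tested.

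The label fitted most of the members but not all. Of the 37 genes, 24 (25 probe sets) stood in one of 11 lists of cilium genes arranged by role, and 13 (16 probe sets) stood in none. The words cilia and cilium matched no title. All 9 titles with axonem, 3 with tektin and 3 with radial spoke belonged to cilium genes, whereas only 5 of the 17 coiled-coil titles and 3 of the 7 titles matched by sperm alone did. The word sperm also caught spermine oxidase (Smox) and a protein named for degenerating spermatocytes (Degs2). The cilium genes and the others are described apart.

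Cilium genes were lower in the tumour lung than in the wild type lung. A difference was read only where the brighter array was at or above its median; 24 of the 25 cilium probe sets passed, 23 of these were at least 2-fold lower, none was at least 2-fold higher and 1 was less than 2-fold lower. Their median log2 difference was -1.78. For 3 of them (Spag6l, Dnaic2 and a probe set of Dnaic1) the tumour value was below the 25th percentile of its array, so that only a lower bound of the fold holds, and the other 21 spanned -3.03 to -0.91. Of all 40 member probe sets that passed, 29 were at least 2-fold lower, 7 at least 2-fold higher and 4 less than 2-fold apart, with a median of -1.53. Among all 24438 probe sets that passed, the share past 2-fold was 10.4% on the lower and 9.26% on the higher side, with a median of -0.05. Among the 3679 listed probe sets that passed, it was 38.7% on the lower and 38.1% on the higher side, with a median of -0.13. With the hybridization controls set equal, all 24 cilium probe sets were at least 2-fold lower, beside 53.3% of all probe sets that passed, while 3.21% of these were at least 2-fold higher. In tissue RNA, fewer multiciliated cells and less RNA per cell cannot be told apart.

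Relative to wild type lung, the cilium probe sets had at most 53.0% of the intensity in tumour lung (median of the 25, 29.9%; lowest of the 22 above the 25th percentile of the tumour array, 12.2%), and between 43.9% and 134% in depleted lung (median 70.4%). In tumour lung 24 of them lay below 50%, and in depleted lung 3 did. The tumour array was the lowest for every one of the 25. The order tumour, depleted, wild type held from low to high in 21, and in the other 4 (Ccdc153, Dnah2, Spag8 and Dnah8) the depleted array was the highest. That depended on the scaling: with the hybridization controls set equal these 4 were below wild type too, and tumour, depleted, wild type was the order of all 25. This setting lowers depleted over wild type lung by 1.18 on the log2 scale for every probe set. The largest difference among the cilium probe sets was 0.43, so all had to fall below wild type. On the tumour array 18 of the 25 were below the array's median and 3 below its 25th percentile, whereas 2 on the depleted array and 1 on the wild type array were below the median.

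**Figure D1:**
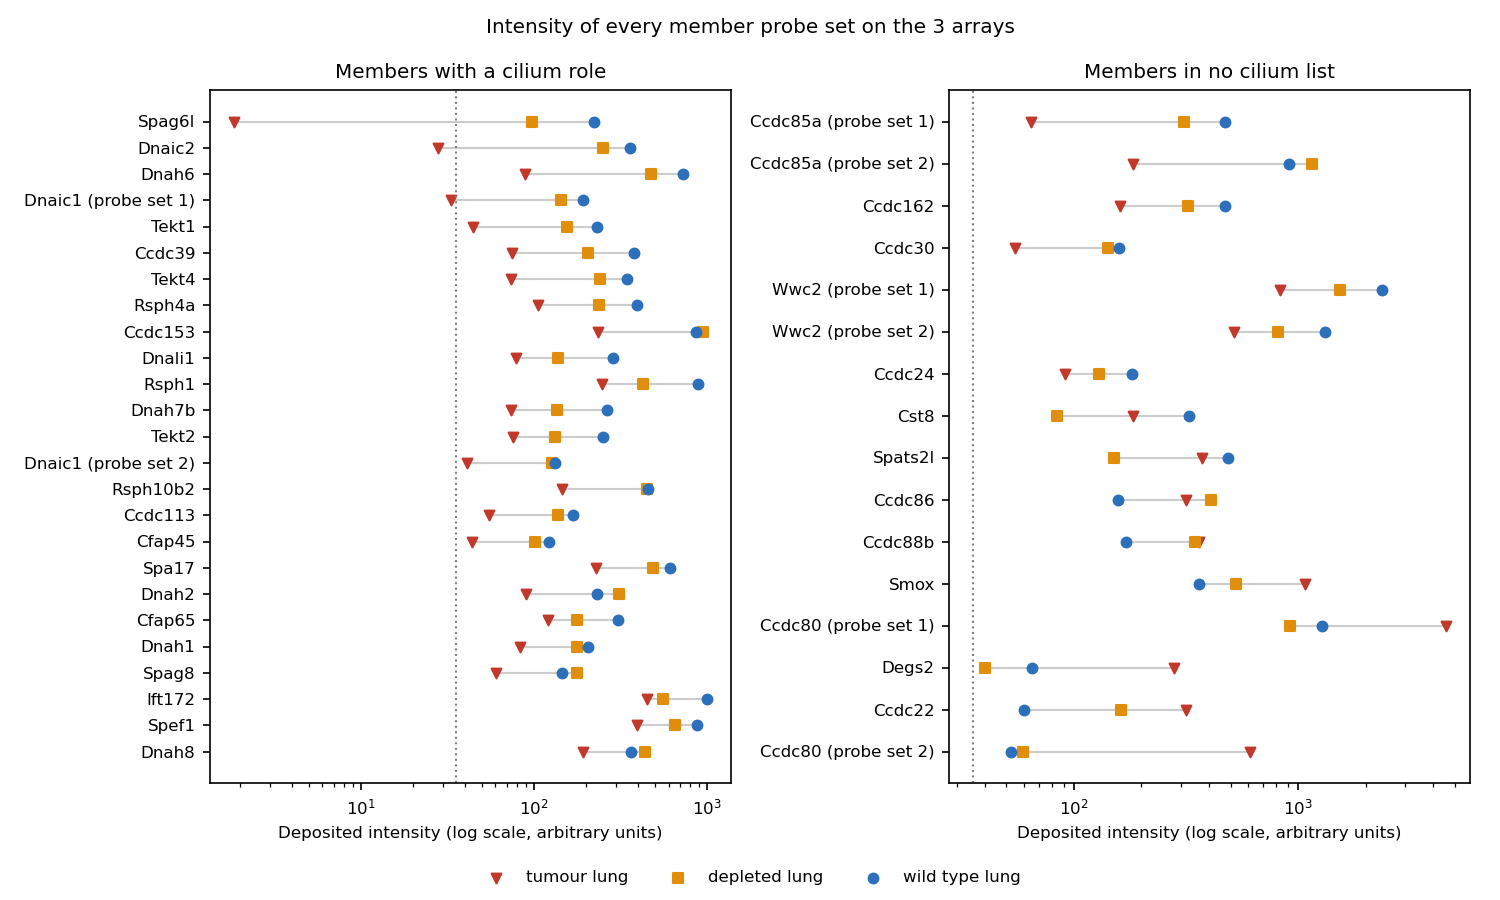
Deposited intensity (log axis, arbitrary units) of the 41 member probe sets on the tumour (triangle), depleted (square) and wild type (circle) arrays, 1 array each, with members in the cilium lists on the left and the rest on the right; the dotted line is the 25th percentile of the tumour array. On the left the triangle is the lowest point in all 25 rows, while on the right it is the highest in 6 of 16.

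Outer dynein arms, the motors that set beat frequency, were represented by Dnaic2, Dnaic1 and Dnah8. Dnaic2, an intermediate chain, had an intensity of 28.03 in tumour lung and 249.9 in depleted lung, against 358 in wild type lung. The tumour value was below the 25th percentile of its array, so the tumour lung was at least 10.1-fold lower than wild type, and the authors' deposited table has 5.68-fold. The depleted array held 69.8% of the wild type value. Dnaic1, the partner intermediate chain, was measured by 2 probe sets. One had 33.3 in tumour lung and 143 in depleted lung, against 191 in wild type lung, and was at least 5.39-fold lower in tumour lung. The other had 41.1 in tumour lung and 128 in depleted lung, against 133 in wild type lung. Both were lowest in tumour lung, and the second put depleted lung at 96.1% of wild type where the first gave 74.5%. Dnah8, a heavy chain known best from sperm, had 192 in tumour lung and 442 in depleted lung, against 363 in wild type lung. It was the cilium member with the smallest difference, 1.89-fold lower in tumour lung from these intensities, although the authors' deposited table has 2.91-fold.

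Inner dynein arms, which shape the bend, gave 5 members, all at least 2-fold lower in tumour lung. Dnah6, a heavy chain, had 89.3 in tumour lung and 475 in depleted lung, against 732 in wild type lung. It was 8.19-fold lower in tumour lung, where the authors' deposited table has 3.55-fold. The light chain gene Dnali1 had 79.1 in tumour lung and 137 in depleted lung, against 285 in wild type lung, and thus lay below 50% of wild type on both mutant arrays. Dnah7b, another heavy chain, had 74.2 in tumour lung and 135 in depleted lung, against 263 in wild type lung; close copies of this gene exist in the mouse, so its probe set may also read them. Dnah1 had 82.9 in tumour lung and 178 in depleted lung, against 205 in wild type lung. Dnah2 went another way in depleted lung, with 89.6 in tumour lung and 310.0 in depleted lung, against 231 in wild type lung, which made depleted lung 134% of wild type, the highest share among the cilium members, although its log2 difference of 0.43 became -0.76 with the hybridization controls set equal.

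Tektins are filaments inside the doublet microtubules, and all 3 members of the family were lower in tumour lung. Tekt1 had 44.7 in tumour lung and 155 in depleted lung, against 232 in wild type lung, a 5.19-fold lower value in tumour lung where the authors' deposited table has 2.31-fold. Tekt4 had 73.4 in tumour lung and 243 in depleted lung, against 344 in wild type lung (4.69-fold lower in tumour lung). Tekt2 had 75.3 in tumour lung and 132 in depleted lung, against 252 in wild type lung (3.34-fold lower in tumour lung). In depleted lung Tekt1 and Tekt4 were at 66.9% and 70.4% of wild type, and Tekt2 at 52.4%. A pair of further proteins of the doublet lumen, Spag8 and Cfap45, were among the members. Spag8 had 60.7 in tumour lung and 178 in depleted lung, against 146 in wild type lung. Cfap45, named Ccdc19 in the files, had 44.1 in tumour lung and 102 in depleted lung, against 123 in wild type lung, and did not pass the level filter in any comparison.

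Members that differed together were also compared in their promoters, since genes of motile cilia are known to be controlled by RFX factors, which bind the X-box, and by the forkhead factor Foxj1, which was not named in the deposited tables and is not analysed here. The RefSeq promoter table (build GRCm38.p6) holds windows of 300 bases, 250 before and 50 after the start, and 20 of the 24 cilium members had one or more (24 windows). The RFX site of 6 letters, GTTGCC, searched on both strands, was in 11 of these 24 windows (45.8%), against 12.5% of all 32851 windows and 11.7% of the 2866 windows of genes named in the deposited tables. The longer RFX core, GTNNCC and GGNAAC with 1 or 2 bases between them, was in 2 windows (8.33%, against 1.90% of all), those of Tekt4 and Spag6l. In Spag6l it is the other strand of GTTGCCCTGGAGAC (chr16:16829316-16829329, minus strand), which begins 34 bases after the start. A forkhead core, TGTTTAC or TGTTTGC, was in 6 windows (25%, against 8.48% of all), and CCAAT in 9 (37.5%, against 37.4%). The forkhead core was in 4 (12.1%) of the 33 windows of the other listed genes of the cilium lists. In the 13 windows of members outside the cilium lists the short RFX site was in 4 (30.8%), the forkhead core in 4 (30.8%) and the RFX core in 0. These matches are descriptions of the letters; binding was not measured.

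An inverted repeat of the first 5 letters of the short RFX site, GTTGC and GCAAC with 1 to 3 bases between them, was searched after the member promoters had been seen. Its share and position in those promoters are therefore descriptions, and their distance from the values of all windows is no support. The repeat was in 6 of the 24 windows (25%, in 5 genes), against 89 of all 32851 windows (0.271%), and in 0 of the 13 windows of the other members. In the 33 windows of the other listed genes of the cilium lists the repeat was in 2 (6.06%) and the RFX core in 9 (27.3%). The 5 genes are 3 of the dynein arm genes and 2 of the tektin genes described above, and in each the repeat begins 24 to 36 bases before a start. By windows, it begins within 50 bases before the start in 5 of these 6 (83.3%) and in 37 of all 89 (41.6%). Each reads the same pattern on both strands, and in Dnaic2 and Tekt2 it overlaps a match to GTTGCC on the other strand. The 250 bases before the start are printed 5′ to 3′ on the strand of the gene, from RefSeq (GRCm38.p6), with the inverted repeat in capitals.
Dnaic2, chr11:114727169-114727418, plus strand: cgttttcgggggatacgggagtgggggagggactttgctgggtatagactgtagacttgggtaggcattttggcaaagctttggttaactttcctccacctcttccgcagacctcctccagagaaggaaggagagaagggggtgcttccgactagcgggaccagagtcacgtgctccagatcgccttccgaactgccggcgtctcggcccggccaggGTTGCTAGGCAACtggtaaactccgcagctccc
Dnah6, chr6:73221632-73221881, minus strand: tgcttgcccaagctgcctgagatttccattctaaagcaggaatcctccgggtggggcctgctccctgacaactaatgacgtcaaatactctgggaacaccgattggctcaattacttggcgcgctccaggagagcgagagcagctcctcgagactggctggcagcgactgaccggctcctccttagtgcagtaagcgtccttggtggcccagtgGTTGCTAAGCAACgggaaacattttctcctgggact
Dnah7b, chr1:46066603-46066852, plus strand: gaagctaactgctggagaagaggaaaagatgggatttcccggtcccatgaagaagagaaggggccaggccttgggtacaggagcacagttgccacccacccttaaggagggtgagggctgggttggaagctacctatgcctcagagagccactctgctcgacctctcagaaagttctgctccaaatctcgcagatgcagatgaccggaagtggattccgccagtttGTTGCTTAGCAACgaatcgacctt
Tekt2, chr4:126325689-126325938, minus strand: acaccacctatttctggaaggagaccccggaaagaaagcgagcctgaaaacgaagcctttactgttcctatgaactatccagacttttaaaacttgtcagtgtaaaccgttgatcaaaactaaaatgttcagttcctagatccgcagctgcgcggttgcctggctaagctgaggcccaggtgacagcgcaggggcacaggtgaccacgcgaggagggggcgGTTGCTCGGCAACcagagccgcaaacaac
Tekt4, chr17:25471340-25471589, plus strand: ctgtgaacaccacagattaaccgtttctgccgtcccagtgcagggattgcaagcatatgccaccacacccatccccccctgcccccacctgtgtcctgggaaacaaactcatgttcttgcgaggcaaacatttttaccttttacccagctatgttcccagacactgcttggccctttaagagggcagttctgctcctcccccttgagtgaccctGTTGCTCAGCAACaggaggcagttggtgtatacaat

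**Figure D2:**
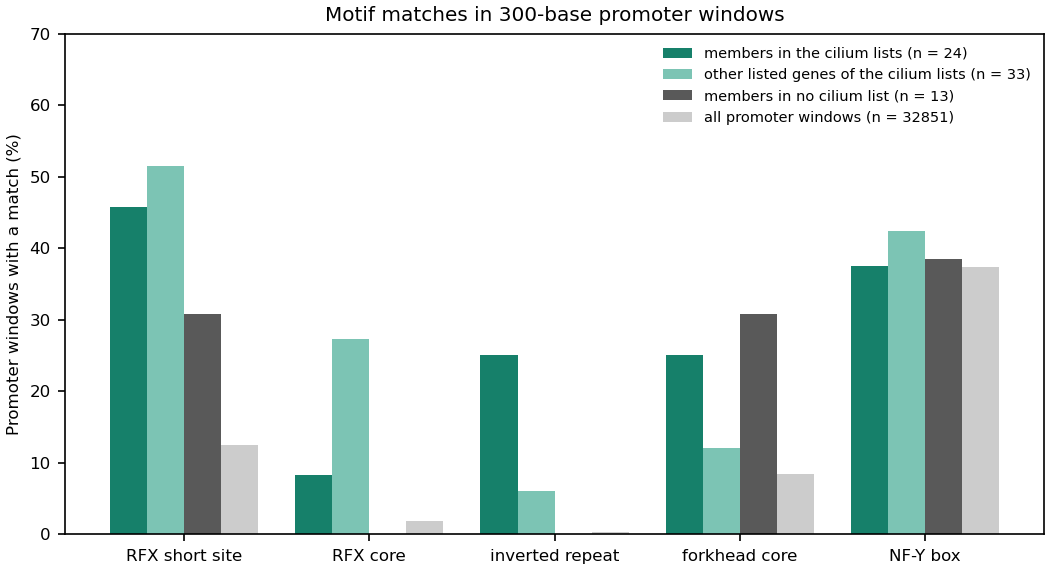
Share of 300-base promoter windows (%) that hold each motif, for members in the cilium lists, other listed genes of those lists, members in no cilium list and all windows of the RefSeq table. The first 2 sets hold the short RFX site in 45.8% and 51.5% of windows against 12.5% of all, while CCAAT, the NF-Y box, is at 37.5% and 42.4% against 37.4%.

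Radial spokes reach from the doublets to the central pair. Rsph4a, a protein of the spoke head, had 106 in tumour lung and 238 in depleted lung, against 394 in wild type lung (3.71-fold lower in tumour lung). Rsph1, also of the head, had 247 in tumour lung and 427 in depleted lung, against 888 in wild type lung (3.59-fold lower in tumour lung). Rsph10b2 had 144 in tumour lung and 453 in depleted lung, against 458 in wild type lung (3.17-fold lower in tumour lung). The tumour lung was at 26.9% to 31.5% of wild type for all 3, whereas the depleted lung spread from 48.1% for Rsph1 to 98.9% for Rsph10b2.

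The central pair steers the beat, and 3 members belong to it. Spag6l, listed as Spag6 in the files and having a near copy in the mouse genome, had 1.84 in tumour lung and 97.2 in depleted lung, against 221 in wild type lung. The tumour value was far below the 25th percentile of its array, so only a bound holds: at least 6.24-fold lower in tumour lung, with 3.62-fold in the authors' deposited table. Cfap65, listed as Ccdc108, had 120.1 in tumour lung and 177 in depleted lung, against 304 in wild type lung. Spef1 had 395 in tumour lung and 652 in depleted lung, against 880.3 in wild type lung. The tumour lung was 2.53-fold lower for Cfap65 and 2.23-fold lower for Spef1, with both genes in the same order over the arrays.

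The regulatory complex and its rulers gave 1 member, Ccdc39, which spaces the spokes and inner arms along the doublet. It had 75.05 in tumour lung and 205 in depleted lung, against 377 in wild type lung (5.03-fold lower in tumour lung). Intraflagellar transport likewise gave 1 member, Ift172, a subunit of the train that runs to the tip, also needed by the primary cilia of other cell types. It had 448 in tumour lung and 555 in depleted lung, against 1001 in wild type lung, or 44.8% of wild type in tumour lung and 55.4% in depleted lung. Of 3 further genes known from multiciliated cells, Ccdc153 had 236 in tumour lung and 953 in depleted lung, against 870.1 in wild type lung. Ccdc113 had 54.8 in tumour lung and 138 in depleted lung, against 168 in wild type lung. Spa17, first described in sperm, had 228 in tumour lung and 489.9 in depleted lung, against 609.5 in wild type lung.

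The size of these differences depended on which deposited values were used. Directions in tumour against wild type lung were the same in the authors' deposited table for 25 of 25 cilium probe sets, and 24 of them were at least 2-fold lower there, with a median log2 ratio of -1.40 against -1.78 from the intensities taken here on the filtered set. For 7 of the 25 the 2 sources were over 1.5-fold apart. Nearest to the 2-fold threshold of that table were, inside it, Ift172 (2.02-fold) and Wwc2 (2.11-fold), and outside it Ccdc88b (1.99-fold) and Dnah2 (1.96-fold), which entered through another comparison.

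Depleted lung had higher intensities of cilium genes than tumour lung. Of the 23 cilium probe sets that passed, 16 were at least 2-fold higher, none was at least 2-fold lower and 7 were less than 2-fold higher, with a median log2 difference of 1.33. The 21 with both values above the 25th percentile ranged from 0.31 to 2.41, and for Dnaic2 and a probe set of Dnaic1 only a lower bound holds. Over all 39 member probe sets that passed, 20 lay at least 2-fold above tumour lung and 6 at least 2-fold below it (median 1.01). Over all 24243 probe sets that passed, 7.7% were past 2-fold on the higher and 7.26% on the lower side (median 0.03), and over the 3603 listed ones it was 29.3% on the higher and 28.6% on the lower side (median 0.21). Dnaic2 was at least 7.04-fold higher in depleted lung and Dnah6 5.31-fold higher. Ccdc153 was 4.04-fold, Tekt1 3.47-fold and Dnah2 3.46-fold higher. Among the 7 that differed by less were Ift172 (1.24-fold), Cfap65 (1.47-fold), and Rsph1 and Dnali1 (1.73-fold each). Spag6l and Cfap45 did not pass the level filter here. The authors' deposited table has 15 of 25 at least 2-fold higher, with a median of 1.12. Nearest to its threshold were Ccdc113 (2.11-fold) and Ccdc39 (2.15-fold) inside, and Smox (1.98-fold) and Dnali1 (1.88-fold) outside. This comparison shares the tumour array with the previous one, so the values of the same array enter both.

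Depleted lung was nearer to wild type lung, and somewhat below it. Of 24 cilium probe sets that passed, 3 were at least 2-fold lower (Spag6l at 2.28-fold, Dnali1 and Rsph1 at 2.08-fold each), none was at least 2-fold higher and 21 were less than 2-fold apart. The median log2 difference was -0.51, with a range of -1.19 to 0.43, and 20 of the 24 were below wild type. Over all 38 member probe sets that passed, 5 lay at least 2-fold below wild type and 3 at least 2-fold above it (median -0.49). Over all 24074 probe sets that passed, 6.33% were past 2-fold on the lower and 6.24% on the higher side (median -0.03), and over the 3423 listed ones it was 22% on the lower and 24.2% on the higher side (median -0.07). In the authors' deposited table no cilium member was past 2-fold in this comparison, and the median was -0.48. Nearest to its threshold among the members were Ccdc88b (2.00-fold) and Ccdc22 (2.04-fold) inside, and Tekt2 (1.88-fold) and Wwc2 (1.80-fold) outside. The distance from wild type depended on the scaling of the arrays. With the hybridization controls set equal, 21 of the 24 were at least 2-fold lower in depleted lung, with a median of -1.70, beside 65.7% of all probe sets that passed, whose median was then -1.21.

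**Figure D3:**
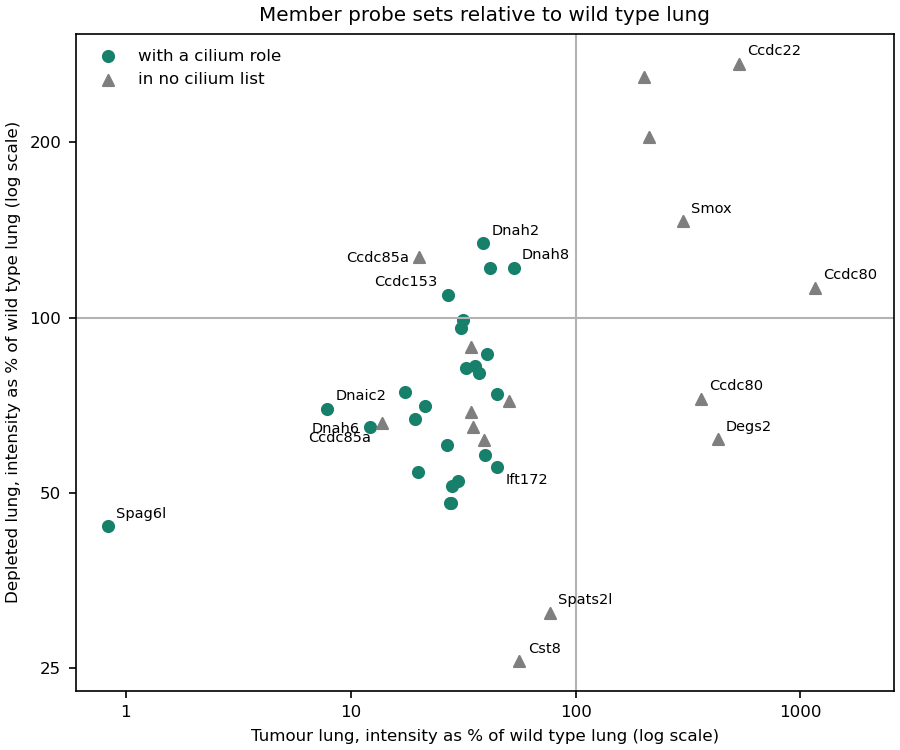
Intensity in tumour lung (horizontal) and in depleted lung (vertical) as a percentage of the wild type array, both on log axes, with 1 point per member probe set; circles are members in the cilium lists, triangles the rest, and grey lines mark the wild type level. The 25 circles lie at or below 53.0% in tumour lung, and 21 of them lie below the wild type level in depleted lung. The 3 with a tumour value under the 25th percentile of the array are drawn as deposited. For these only a lower bound of the fold between tumour and wild type lung holds. The wild type array is the base of both axes.

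**Figure D4:**
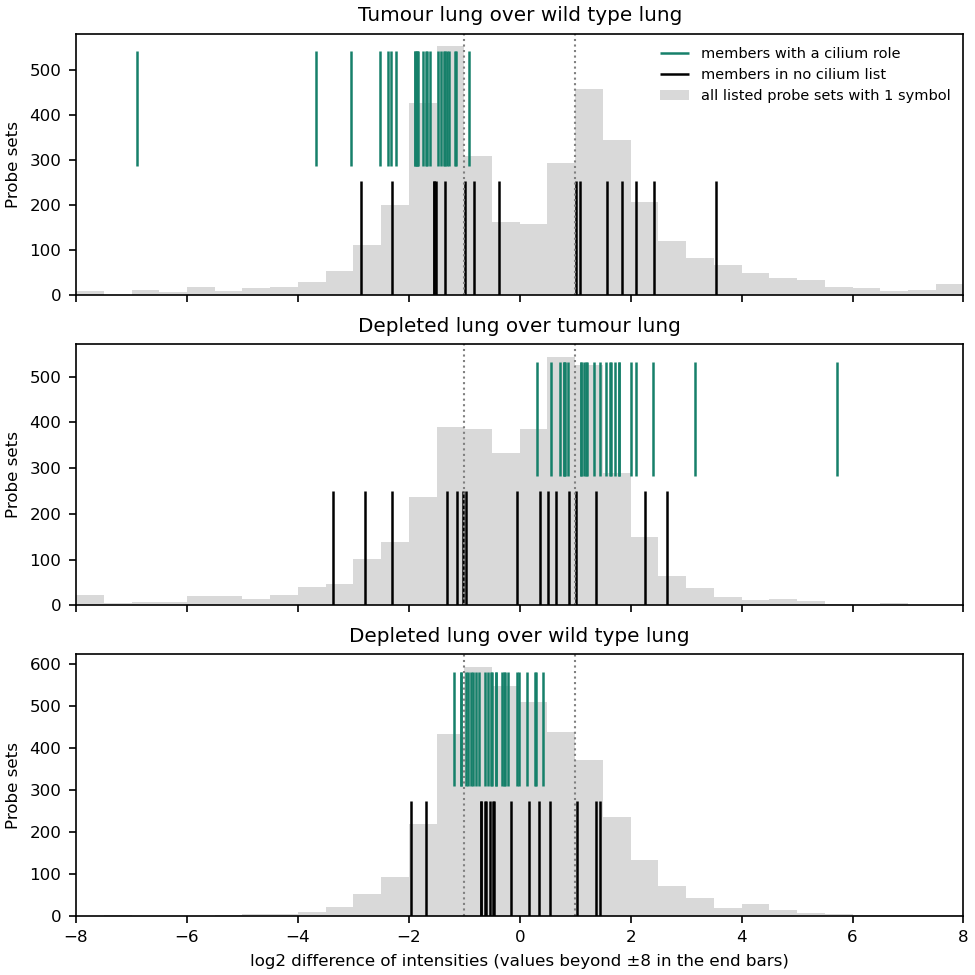
Histograms of log2 differences over all 3858 listed probe sets with 1 symbol in the 3 comparisons (grey), with the cilium members as long upper lines and the other members as lower lines; dotted lines mark 2-fold. The cilium lines that are no bounds run from -3.03 to -0.91 in tumour over wild type lung (values below the 25th percentile of an array are drawn as deposited) and from -1.19 to 0.43 in depleted over wild type lung.

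The 16 probe sets outside the cilium lists did not share one direction. In tumour against wild type lung 6 were at least 2-fold lower, 7 at least 2-fold higher and 3 less than 2-fold apart, with a median of -0.60, which is near the shares of 38.7% lower and 38.1% higher among the listed probe sets. Ccdc80, a secreted protein of the extracellular matrix, had 4579.9 in tumour lung and 922 in depleted lung, against 1271 in wild type lung, by its first probe set. The second had 611 in tumour lung and 59.1 in depleted lung, against 52.5 in wild type lung, which is 11.6-fold higher in tumour lung where the authors' deposited table has 2.91-fold. Both probe sets were highest in tumour lung. Degs2, an enzyme of ceramide synthesis, had 279 in tumour lung and 40.2 in depleted lung, against 65.0 in wild type lung (4.29-fold higher in tumour lung). Smox, which oxidises spermine and has no known cilium role, had 1075 in tumour lung and 526 in depleted lung, against 359.7 in wild type lung (2.99-fold higher in tumour lung).

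At least 2-fold higher on both mutant arrays than in wild type lung were Ccdc22, Ccdc86 and Ccdc88b. Ccdc22, a subunit of a complex that recycles membrane proteins and also acts on NF-kB signalling, had 318 in tumour lung and 163 in depleted lung, against 59.7 in wild type lung. Ccdc86, a nucleolar protein, had 317 in tumour lung and 408 in depleted lung, against 158 in wild type lung. Ccdc88b, known from immune cells, had 359.9 in tumour lung and 348 in depleted lung, against 171 in wild type lung. These 3 were the only members at least 2-fold higher in depleted than in wild type lung. With the hybridization controls set equal that count was 0, and the log2 difference of Ccdc88b was -0.16 in place of 1.03.

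Lower in tumour lung, as the cilium genes were, were Ccdc85a, Ccdc162, Ccdc30 and Wwc2. For Ccdc85a, the probe sets had 64.6 and 184 in tumour lung and 311 and 1159 in depleted lung, against 471 and 913 in wild type lung (7.29-fold and 4.97-fold lower in tumour lung). Ccdc30 had 54.5 in tumour lung and 142 in depleted lung, against 159 in wild type lung, and Ccdc162 had 161 in tumour lung and 323 in depleted lung, against 469 in wild type lung. Wwc2, a regulator of the Hippo pathway, was 2.85-fold and 2.55-fold lower in tumour lung by its 2 probe sets. Ccdc24 was 1.98-fold lower. Cst8, a cystatin of the epididymis and testis, and Spats2l were lowest in depleted lung. Cst8 had 183 in tumour lung and 84.0 in depleted lung, against 326 in wild type lung, and Spats2l had 374 in tumour lung and 152 in depleted lung, against 487 in wild type lung. In depleted against wild type lung Cst8 was 3.88-fold lower and Spats2l 3.21-fold lower.

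The 11 lists of cilium genes held 258 genes, of which 59 were named in the deposited tables: the 24 members and 35 others whose titles lack the words of the rule. A list gene that was not named may have no listed probe set or may have differed little. Of the 34 other genes that passed in tumour against wild type lung, 31 lay at least 2-fold below wild type and 0 at least 2-fold above it, with a median of -2.11, beside a median of -1.83 for the 23 member genes that passed. Among listed probe sets 38.7%, and among all that passed 10.4%, were at least 2-fold lower in this comparison. Ccdc181 (1.77-fold) and Cfap69 (1.82-fold) were among those less than 2-fold lower. In depleted over tumour lung 24 of 33 were at least 2-fold higher, with a median of 1.66. The share among listed probe sets there was 29.3%, and among all that passed 7.7%. In depleted over wild type lung 0 of 34 were 2-fold apart, with a median of -0.42. Of listed probe sets 22% were at least 2-fold lower and 24.2% higher there, and of all that passed 6.33% and 6.24%.

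By role, all 8 named radial spoke genes and all 6 of the inner dynein arms were at least 2-fold lower in tumour lung. So were 10 of 11 genes of the doublet lumen, 4 of 4 of the regulatory complex and rulers, 4 of 5 of the central pair, 2 of 3 of the outer arms and 14 of 15 of the other multiciliated cell genes. Their lists held 18, 15, 24, 21, 19, 19 and 46 genes, in the order given here. A gene could be named only if past 2-fold between at least 1 pair of arrays, so selection enters these counts. Beside them, 38.7% of the listed and 10.4% of all probe sets that passed were at least 2-fold lower there. Only 1 gene each was named for dynein assembly (Zmynd10), the transition zone (Tctn2) and the transcription of multiciliated cells (Myb), and 2 of 33 for intraflagellar transport (Ift172 and Ift43). Myb, a transcription factor of early multiciliated cells and of other dividing cells, had 228 in tumour lung and 622 in depleted lung, against 564 in wild type lung. Ift43 had 974 in tumour lung and 1771 in depleted lung, against 2014 in wild type lung.

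**Figure D5:**
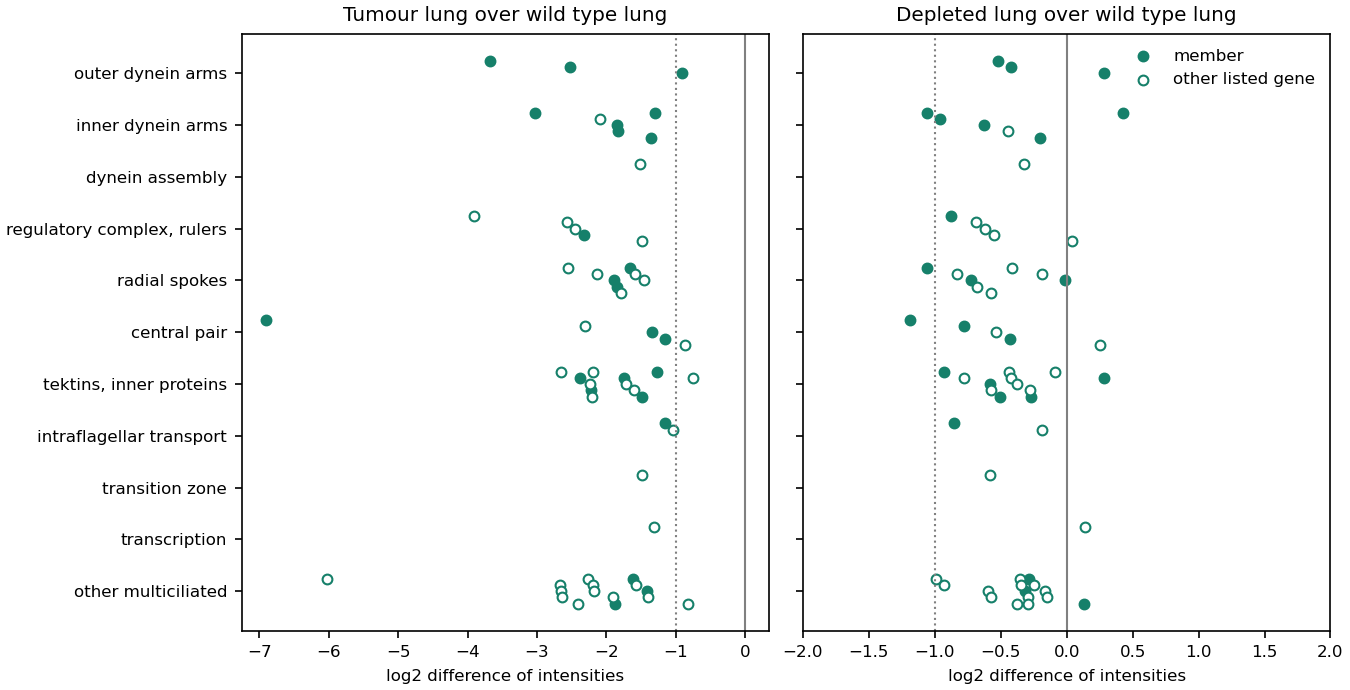
Log2 difference of every named gene of the 11 cilium lists, 1 point per gene (filled, members; open, other listed genes), in tumour over wild type lung (left) and depleted over wild type lung (right); dotted lines mark 2-fold lower, and 2 genes that did not pass the level filter are included. On the left all 59 points lie below 0, and on the right the points lie between -1.19 and 0.43.

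Markers of several cell types differed between the same arrays. Of 23 markers of multiciliated cells 18 were named, 6 of them members. The rest were among the other named genes of the cilium lists, so these markers repeat values already counted above. Their summed intensity was 4202 in tumour lung and 14397 in depleted lung, against 21074 in wild type lung, and all 18 were at least 2-fold lower in tumour lung (median -2.21). Only genes past 2-fold between at least 1 pair of arrays could be named. Of probe sets that passed, 38.7% of the listed and 10.4% of all were at least 2-fold lower in tumour lung. Tppp3, a tubulin-binding protein of these cells and no member, had 1134 in tumour lung and 3745 in depleted lung, against 7138 in wild type lung. Stk33 had 2.35 in tumour lung and 103 in depleted lung, against 154 in wild type lung. The tumour value of Stk33 was too dim for a measured fold, so only a lower bound holds. Stk33 was at least 4.33-fold lower in tumour than in wild type lung, where the authors' deposited table has 3.73-fold. In depleted over tumour lung Stk33 did not pass the level filter.

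Markers of club cells, the secretory neighbours of multiciliated cells in the airway, were also lower in tumour lung. The 7 of 12 named summed to 19180 in tumour lung and 64273 in depleted lung, against 63184 in wild type lung, and all 7 were at least 2-fold lower in tumour lung (median -2.32). Of probe sets that passed, 38.7% of the listed and 10.4% of all were likewise at least 2-fold lower there. Against wild type lung, 2 of the 7 were at least 2-fold lower in depleted lung (median 0.11), beside 22% of listed and 6.33% of all probe sets. Markers of basal and squamous cells (8 of 9 named) ran the other way, with a sum of 42301 in tumour lung and 589.9 in depleted lung, against 453 in wild type lung. Markers of proliferating cells (7 of 10 named) summed to 3209 in tumour lung and 2916 in depleted lung, against 878 in wild type lung. Macrophage markers (8 of 8 named) summed to 61827 in tumour lung and 15369.7 in depleted lung, against 5109 in wild type lung. Marco, a scavenger receptor among these markers, went apart from the sum, with 12.1 in tumour lung and 1289 in depleted lung, against 8.90 in wild type lung. Fibroblast and matrix genes (5 of 5 named) summed to 64034 in tumour lung and 17103 in depleted lung, against 22851 in wild type lung.

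None of 12 markers of testis germ cells was named in the deposited tables. Markers that were silent or differed little between the arrays could not be named there. Their absence therefore does not tell whether these genes were expressed. How far the share of airway epithelium in each piece of lung contributes to the differences of the cilium genes was not tested. The tumour sample was by its label a mixture of carcinoma and neighbouring tissue.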

How the data were processed

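RNA of 1 lung sample per group was labelled with biotin by a 3' IVT kit and read on 1 Affymetrix array, per the labels' protocols. The value table deposited by the authors gives 1 linear intensity for each probe set and array; the method of summarising and scaling is not named in the sources used here. The submitters' processing notes name Partek and no version. The authors' 3 deposited comparison tables give the ratio between 2 samples as a linear fold, according to the file headers.

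Members were found by the words in the deposited gene titles, and symbols were updated with RefSeq (GRCm38.p6) by accession for 38 of the 41 probe sets, by current symbol for 1 and by older symbol for 1, while 1 kept the file's symbol. The members, the role lists and the marker lists were chosen with earlier results of these data known. Differences are of log2 intensities with no further scaling. Probe sets were compared only where the brighter of both arrays reached its own 50th percentile. A dimmer value below the 25th percentile of its array was set to that percentile for the fold, which is then a lower bound. For list genes with several listed probe sets, the one with the highest mean was used. Members that stand in a list were named, with those of the largest differences and those nearest to the threshold; other list genes were named at the extremes or where a count was small, after their values were seen. Rsph10b2 was counted with the radial spokes although the list spells it otherwise. Detection calls were not used. With 1 array per group there was no test, and precision is limited by the number of arrays. The counting of 2-fold differences was checked on simulated data, with differences planted in bright probe sets only. The bounds for dim values and the matching of names and lists were not checked that way. Tools were Python 3.11.15 with numpy 2.4.6, pandas 2.3.3 and matplotlib 3.10.9.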

Additional observations from a re-analysis of the deposited data

How the results depend on the processing

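No paired analysis was possible because each group had 1 array. Of 138 alternative values of the member medians and counts, 107 stayed close to the reported value and 31 moved. Setting the 18 hybridization controls equal shifted the median of all probe sets by -1.04 (tumour over wild type), -0.16 (depleted over tumour) and -1.21 (depleted over wild type), and the member medians became -2.53 in tumour over wild type and -1.68 in depleted over wild type lung. Under it the class medians, an alternative added after seeing the data, were -2.78, 1.15 and -1.70 for cilium members and -1.60, -0.03 and -1.65 for the others, in the same order of comparisons; the sign of the others in depleted over tumour lung thus differed from the reported 0.16. Centring on medians or 75th percentiles and quantile normalization left each class median within 0.10 of its reported value. In tumour over wild type lung, the 29 lower members became 9 with a filter at the 75th percentile, 19 without members matched only by coiled-coil and 18 at 3-fold, and the 7 higher became 3 with equal controls, 3 with that filter, 2 without coiled-coil members, 0 among cilium list members and 4 at 3-fold. In depleted over tumour lung, the 6 lower became 3 with the authors' deposited ratios, 3 with the filter, 2 without members matched only by sperm, 0 among cilium list members and 3 at 3-fold, and the 20 higher became 2 with the filter, 13 without coiled-coil members and 11 at 3-fold. In depleted over wild type lung, the 5 lower became 30 with equal controls, 2 with the authors' deposited ratios, 1 with the filter, 2 without sperm members, 3 among cilium list members, 15 at 1.5-fold and 2 at 3-fold, and the 3 higher became 1 without probe sets of shared sequence and 0 with equal controls, the filter, only cilium list members, no coiled-coil members or 3-fold. In depleted over wild type lung, equal controls turned the sign of 4 cilium probe sets (Dnah8, Ccdc153, Spag8 and Dnah2). They also turned 4 others (Ccdc85a, Ccdc80, Smox and Ccdc88b). Of all these only Ccdc88b, at -0.16, had been past 2-fold. The authors' deposited ratios differed in sign for Ccdc153 and a probe set of Ccdc80, and gave no difference (log2 of 0) for Spag8 and Degs2. Scaling by 75th percentiles or quantiles turned the sign for Rsph10b2. In depleted over tumour lung the authors' ratio differed in sign for Ccdc88b, and in tumour over wild type lung no member turned under these settings. Stricter filters and thresholds keep fewer probe sets by construction; for the other settings the cause was not tested.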
